A study of Mus musculus with 6 samples.

Results

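Amyloid-clearance and Alzheimer risk genes were examined in cultured skull osteoblasts, as 10 mouse genes chosen by symbol from the 17830 genes of the deposited count table. They were Apoe and Clu, which encode amyloid-binding apolipoproteins, Ide and Mme, which encode amyloid-degrading peptidases, Lrp1, Sorl1 and Bin1, which act in endocytosis and sorting, and Trem2, Tyrobp and Grn, which encode a myeloid receptor, its signalling adaptor and a lysosomal growth factor. All 10 were among the 13484 genes that passed the filter on low counts. The experiment was bulk RNA sequencing of tdTomato+ cells grown out of skull bone chips and sorted by flow cytometry, from mice aged 6 months. Both groups carried mOCN-Cre, a Cre recombinase knocked into the osteocalcin gene Bglap, and Ai9, a reporter allele that switches on the red fluorescent protein tdTomato in cells with Cre activity. The 3 control libraries came from mOCN-Cre;Ai9 mice, and the 3 APPswe libraries from TgAPPswe mOCN-Cre;Ai9 mice, which in addition express human APP with the Swedish mutation from a CAG promoter once Cre has removed a stop cassette, so that expression of the transgene persists in any cell in which the Bglap locus was once active. The comparison therefore asks how cells of the osteoblast lineage differ when they make APPswe. The labels number the replicates without saying whether each came from a separate animal or culture, so the p-values below measure only the spread between these libraries, which may be technical.

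Amyloid-beta is cut from APP, and its level in tissue depends on both its production and its removal. In the brain, apolipoproteins bind the peptide, lipoprotein receptors such as LRP1 take it up, sorting receptors of the VPS10 family steer APP away from the compartments where it is cut, peptidases degrade it, and microglia engulf it through receptors such as TREM2. Human variants at most of these loci alter the risk of Alzheimer disease, and the same proteins also serve lipid transport, matrix turnover and macrophage function outside the brain.

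Library depth was even, at 17263757 to 18398392 counts, and 3 counts, taken as the floor of detection, were worth between 0.167 and 0.173 CPM (counts relative to the library size after TMM normalization). Control replicate 2 stood apart from all other libraries. It held 2 counts on Y-linked genes against 2257 to 3406 in each of the others, although the study describes male mice, and 1 count on Bglap against 115 to 204. The results for the 10 genes and the counts of each list are therefore given with this library and without it. App, counted at 17020 to 22893 in every library, could not check the genotype, since the transgene has no row of its own. The cells were labelled osteoblasts, and type I collagen was abundant in all libraries (Col1a1, 3585 to 5705 CPM), but Bglap reached only 11.5 CPM, and the macrophage genes Cd68 (543 to 1193 CPM) and Csf1r (778 to 1362 CPM) were high in all 6. All 13 macrophage markers examined were above the floor in every library. The values below thus describe sorted cultures that held macrophage transcripts at high level as well as osteoblast transcripts, and in bulk samples fewer cells of a type and less RNA per cell cannot be told apart.

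Promoter sequence was available in the RefSeq table (GRCm38.p6) for 7 of the 10 genes. The 250 bases before the start site are shown, 5′ to 3′, for Sorl1 and Grn, the 2 genes that passed the test as lower in all 19 alternative fits, and for Trem2, the receptor gene of the set. Capitals mark the matches to any of 4 motifs, searched on both strands and in the 50 bases after the start site as well: GAGGAAGT, a PU.1-type site of myeloid genes, GTCACGTG, an E-box of the type bound by lysosomal gene regulators, TGANTCA, an AP-1 site, and the DR4 repeat bound by nuclear receptors of the LXR type.
Sorl1 (chr9:42124298-42124547, minus strand): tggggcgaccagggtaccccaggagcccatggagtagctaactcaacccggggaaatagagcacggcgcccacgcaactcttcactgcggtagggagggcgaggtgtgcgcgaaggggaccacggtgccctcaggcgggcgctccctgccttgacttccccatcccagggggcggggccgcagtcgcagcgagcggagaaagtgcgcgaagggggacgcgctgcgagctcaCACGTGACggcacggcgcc
Grn (chr11:102430257-102430506, plus strand): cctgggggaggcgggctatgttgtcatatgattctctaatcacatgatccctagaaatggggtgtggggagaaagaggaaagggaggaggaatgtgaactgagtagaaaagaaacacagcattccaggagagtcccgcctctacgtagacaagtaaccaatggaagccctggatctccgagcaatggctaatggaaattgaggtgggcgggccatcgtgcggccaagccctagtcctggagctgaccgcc
Trem2 (chr17:48346151-48346400, plus strand): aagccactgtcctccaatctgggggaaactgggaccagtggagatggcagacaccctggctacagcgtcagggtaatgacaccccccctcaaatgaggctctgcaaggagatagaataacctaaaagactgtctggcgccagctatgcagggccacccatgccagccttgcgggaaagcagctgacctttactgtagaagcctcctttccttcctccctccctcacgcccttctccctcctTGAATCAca
The Sorl1 window held the E-box as CACGTGAC beginning 19 bases before the start site, a motif found in 2.25% of all 32851 windows in the table. The Trem2 window held TGAATCA beginning 9 bases before the start site, and 7.81% of all windows hold an AP-1 match. No match lay in the Grn window. These matches are descriptions of letters, and no binding was measured.

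Of the 10 genes, 4 were lower in APPswe cells and 0 were higher. Sorl1, Grn, Ide and Lrp1 fell in the edgeR quasi-likelihood test, with p-values adjusted over all 13484 genes and a limit of 0.05, and in each of them every APPswe library lay below every control library. Over all genes tested, 12% were lower by this test and 10.5% higher. In 22.2% of all genes every APPswe library lay below every control, and in 22.8% above. The count of higher genes among the 10 was also 0 at an unadjusted p under 0.05, and in DESeq2 and limma. None of the 4 reached an absolute log2 fold change of 1, while 3.6% of genes tested both passed as lower and reached that size, and 3.74% did so as higher. Without control replicate 2, 9 of the 10 were lower and none higher, against 25% and 23.3% of the 13753 genes then tested, and these 9 also had groups that did not overlap, against 33.3% of all genes in that direction and 32.9% in the other. Bin1 was the exception. The median log2 fold change over all genes tested was near 0 in both fits, at -0.0033 and 0.0145.

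**Figure D1:**
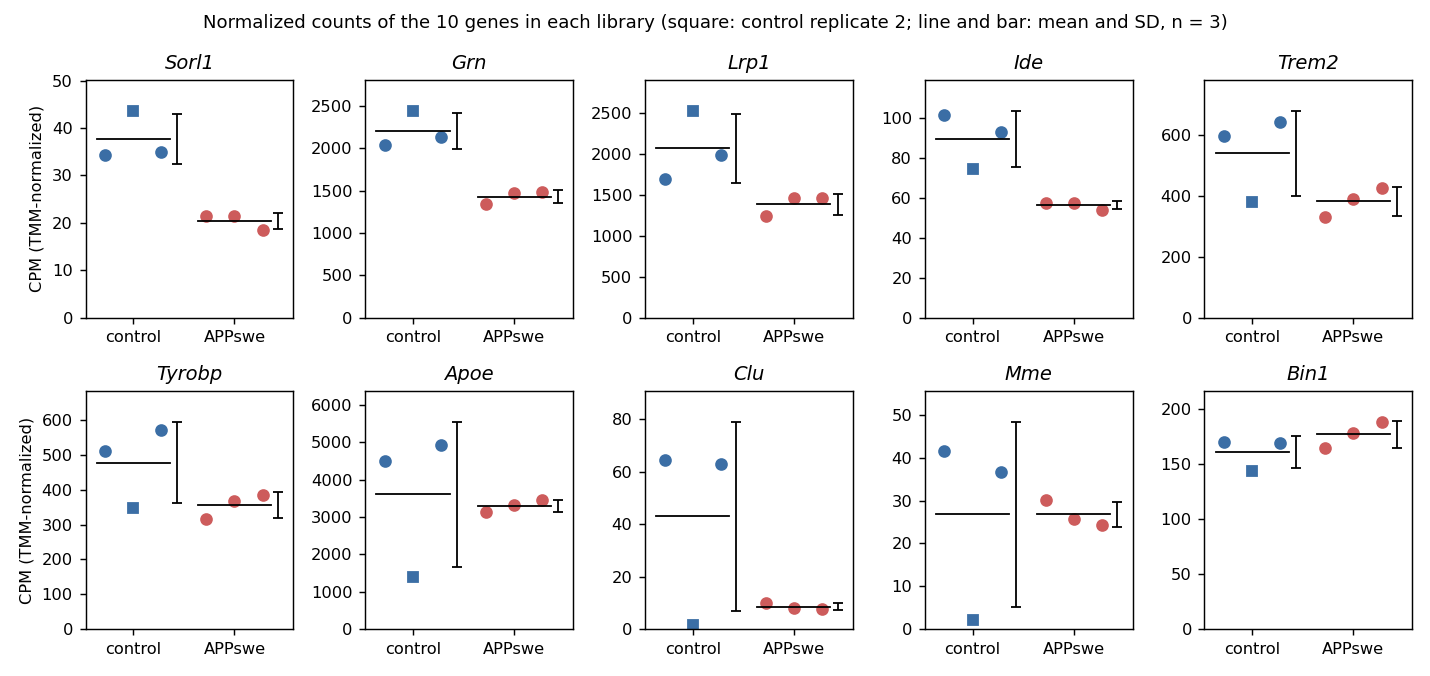
TMM-normalized CPM of the 10 genes in each library, one panel per gene, with controls in blue, APPswe in red, control replicate 2 as a square, and a line and bar for the mean and SD of 3 libraries. Sorl1, Grn, Lrp1 and Ide show 2 separate groups, and in Clu, Mme and Apoe control replicate 2 lies below all other libraries.

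Sorl1 and Grn passed the test in 19 of 19 alternative fits. Sorl1 encodes a sorting receptor that retains APP in the Golgi and in recycling endosomes. Its level was 34.4, 43.7 and 34.9 CPM in control replicates 1, 2 and 3, and 21.4, 21.4 and 18.5 CPM in APPswe replicates 1, 2 and 3. The lowest control stood well above the highest APPswe library, and control replicate 2 was the highest of all 6. Its log2 fold change, APPswe minus control throughout, was -0.88 (SE 0.13, adjusted p = 0.00519), and -0.76 (SE 0.09, adjusted p = 5.6e-05) without control replicate 2, both from edgeR's quasi-likelihood test. The gene lies at chr9:41964709-42124297 (GRCm38.p6).

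Grn encodes progranulin, a secreted protein that is delivered to lysosomes and cut there into granulins. It was far more abundant than Sorl1, at 2043, 2443 and 2130 CPM in the controls and 1339, 1469 and 1479 CPM in the APPswe libraries. The groups did not overlap, and the APPswe mean of 1429 ± 77.7 CPM (SD, n = 3) was 64.8% of the control mean of 2205 ± 211 CPM (SD, n = 3). This gave a log2 fold change of -0.63 (SE 0.10, adjusted p = 0.00665), and -0.54 (SE 0.06, adjusted p = 3.82e-05) without control replicate 2. Grn lies at chr11:102430507-102436809.

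Lrp1, at chr10:127538157-127621148, encodes a large endocytic receptor that takes up APOE-containing lipoprotein and amyloid-beta. Its level was 1697, 2528 and 1989 CPM in the controls and 1238, 1458 and 1463 CPM in the APPswe libraries. The groups did not overlap, but the controls were widely spread, from a value close to the APPswe range up to control replicate 2. For Lrp1 the log2 fold change was -0.58 (SE 0.16, adjusted p = 0.0418). It was -0.41 (SE 0.09, adjusted p = 0.00302) without control replicate 2. The call was close to the threshold, and it was lost when control replicate 3 (adjusted p = 0.0791) or APPswe replicate 1, 2 or 3 (adjusted p = 0.148, 0.125 and 0.118) was left out of edgeR's fit.

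Bin1, which encodes a membrane-bending adaptor of endocytosis, did not pass the test in either fit. It was counted at 170, 144 and 169 CPM in the controls and at 164, 178 and 188 CPM in the APPswe libraries. The ranges overlapped, and control replicate 2 was again the library farthest from the rest. In edgeR's fit Bin1 had a log2 fold change of 0.14 (SE 0.10, adjusted p = 0.349), and 0.06 (SE 0.07, adjusted p = 0.477) without that library. Bin1 (chr18:32376618-32435740) passed in 0 of 19 alternative fits.

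The 2 peptidase genes differed in how they related to control replicate 2. Ide encodes insulin-degrading enzyme, a metallopeptidase of the cytosol and the extracellular space that cleaves insulin and amyloid-beta. It was counted at 102, 74.2 and 92.8 CPM in the controls and at 57.6, 57.4 and 54.1 CPM in the APPswe libraries. The groups did not overlap, and control replicate 2, although the lowest control, stayed above all APPswe libraries. Ide thus had a log2 fold change of -0.67 (SE 0.12, adjusted p = 0.0116), and -0.78 (SE 0.07, adjusted p = 7.8e-06) without control replicate 2. The call was lost narrowly when APPswe replicate 1, 2 or 3 was left out (adjusted p = 0.052, 0.0594 and 0.0663, edgeR). Ide lies at chr19:37268743-37334544.

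Mme, at chr3:63295211-63383713, encodes neprilysin, a membrane peptidase that cleaves small peptides including amyloid-beta. Control replicates 1 and 3 held 41.7 and 36.7 CPM, control replicate 2 held 2.02 CPM (36 counts), and the APPswe libraries held 30.2, 25.8 and 24.4 CPM. Controls 1 and 3 were thus 19.4-fold above control 2, with all APPswe libraries between them. The group means were nearly equal, at 26.8 ± 21.6 CPM in control and 26.8 ± 3.01 CPM in APPswe (SD, n = 3 each), and the log2 fold change was 0.00 (SE 0.82, adjusted p = 1, edgeR). Without control replicate 2 it was -0.55 (SE 0.10, adjusted p = 0.00145).

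Trem2 and Tyrobp encode the lipid-sensing receptor of microglia and other macrophages and the adaptor through which it signals, and both genes are also expressed in osteoclast precursors. Trem2 (chr17:48346401-48352276) was counted at 596, 380 and 641 CPM in the controls and at 331, 388 and 425 CPM in the APPswe libraries. Control replicate 2 lay inside the APPswe range, and the other controls lay above it. Its log2 fold change was -0.50 (SE 0.20, adjusted p = 0.127, edgeR) with all libraries and -0.70 (SE 0.09, adjusted p = 0.000117) without control replicate 2.

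Tyrobp (chr7:30413782-30417582) showed the same order of libraries. It was counted at 513, 348 and 574 CPM in the controls and at 315, 368 and 386 CPM in the APPswe libraries, again with control replicate 2 inside the APPswe range. Its log2 fold change was -0.42 (SE 0.19, adjusted p = 0.154, edgeR), and -0.61 (SE 0.09, adjusted p = 0.000217) without that library. Per transcript length, the ratio of Trem2 to Tyrobp FPKM was 0.442, 0.416 and 0.416 in the controls and 0.392, 0.397 and 0.413 in the APPswe libraries. The ratio was lower in all APPswe libraries, by -0.0238 on average, with an exact two-sided permutation p of 0.1, the smallest that 3 against 3 libraries allow.

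Most macrophage markers were also lower in APPswe. Of 13 macrophage markers, 8 were lower in APPswe, 1 was higher and 4 did not pass, with a median log2 fold change of -0.74. Their summed level was 18030 to 24940 CPM in the controls and 12510 to 13500 CPM in APPswe. Lyz2 was the largest part of this sum, at 14790, 9772 and 16080 CPM in the controls and 7148, 7840 and 7879 CPM in APPswe. The complement gene C1qa fell from 1005, 810 and 1065 CPM to 500, 552 and 560 CPM, and Cd68 fell by 0.98 on the log2 scale (adjusted p = 0.00093, edgeR). Csf1r, which encodes the receptor for the macrophage growth factor CSF1, was at 778, 1362 and 820 CPM in control and 939, 935 and 937 CPM in APPswe, with overlapping groups (adjusted p = 0.832). Aif1 rose (log2 fold change 1.18, adjusted p = 0.0205). Without control replicate 2, 10 of the 13 were lower and 2 higher, with Csf1r one of the 2 (log2 fold change 0.23, adjusted p = 0.00556). The part of these markers in the results for Trem2, Tyrobp and Grn was not tested.

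Both apolipoprotein genes were spread widely among the controls. Apoe (chr7:19696244-19701310) encodes the main lipid carrier of the brain and a product of macrophages. It was counted at 4498, 1378 and 4928 CPM in the controls and at 3134, 3318 and 3443 CPM in the APPswe libraries. The APPswe libraries were close together and lay between control replicate 2 and the other controls. The log2 fold change was -0.13 (SE 0.42, adjusted p = 0.855, edgeR), and -0.51 (SE 0.06, adjusted p = 6.88e-05) without control replicate 2.

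Clu (chr14:65968483-65981548) encodes clusterin, an extracellular chaperone that binds amyloid-beta. It was counted at 64.5, 1.41 and 63.0 CPM in the controls and at 9.92, 7.91 and 7.70 CPM in the APPswe libraries. Controls 1 and 3 were 7.49-fold above the APPswe mean, but control replicate 2, with 25 counts, lay below every APPswe library. The log2 fold change of -2.33 therefore had a large error (SE 1.05, adjusted p = 0.157, edgeR). Without control replicate 2 it was -2.90 (SE 0.10, adjusted p = 9.47e-09), and Clu was then the one gene of the 10 that both passed the test and reached an absolute log2 fold change of 1, which 6.58% of all genes did in that direction and 4.87% in the other.

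**Figure D2:**
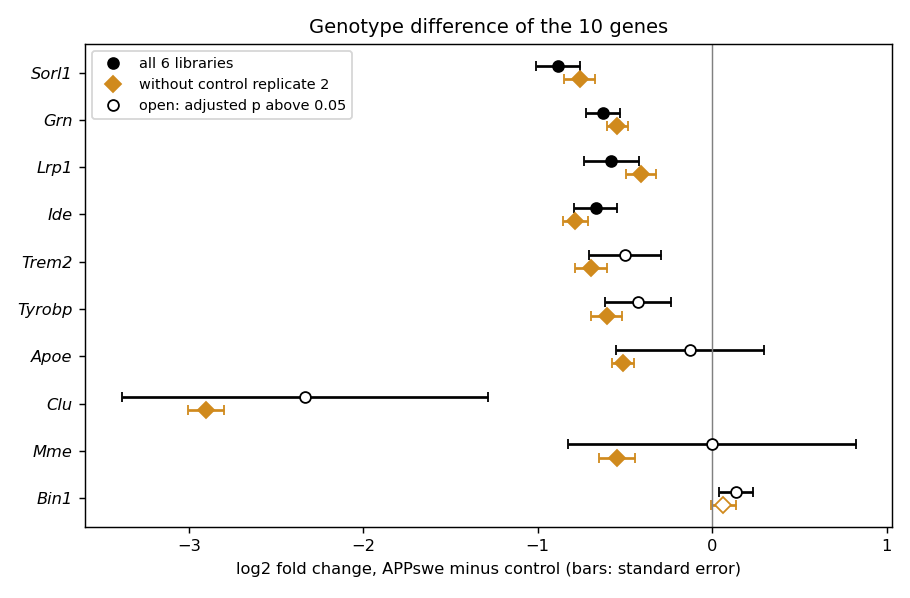
Log2 fold change of the 10 genes, APPswe minus control, with its standard error, from all 6 libraries (black circles) and without control replicate 2 (orange diamonds), with open symbols where the adjusted p was above 0.05. Leaving that library out shortened every bar, and 9 of the 10 genes then lay left of 0 with filled symbols, with Bin1 at 0.06.

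The libraries are named in 2 styles, with a hyphen (control replicates 1 and 2, APPswe replicate 1) or a low line (control replicate 3, APPswe replicates 2 and 3). The names also hold a letter, which is S for control replicate 2 alone (Ctrl-S) and L for every other library. The labels do not say what either letter stands for, and its part in the results was not tested. Within the low-line libraries, the log2 difference, APPswe minus control, was -0.81 for Sorl1, -0.53 for Grn, -0.74 for Ide and -0.45 for Lrp1. Within the hyphen libraries, APPswe replicate 1 minus the mean of both controls, it was -0.86, -0.74, -0.59 and -0.74 for the same genes. Against control replicate 1 alone it was -0.68 for Sorl1, -0.61 for Grn, -0.82 for Ide and -0.45 for Lrp1. The 4 genes were thus lower in APPswe within both styles. For Apoe, Clu and Mme the direction within the hyphen libraries turned on control replicate 2. The differences were 0.33, 0.06 and 1.72 with the mean of both controls and -0.52, -2.70 and -0.47 against control replicate 1 alone, and among the low-line libraries they were -0.54, -3.01 and -0.55. The design leaves 1 or 2 libraries per group and style, so these are values without a test.

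Control replicate 2 was the highest control for Sorl1, Grn and Lrp1 and the lowest for the other 7 genes. Beside Clu, Mme and Apoe, it was also the lowest control for 5 of 7 endothelial markers and for several markers of mineralizing cells, and the highest control for the endothelial markers Kdr (10.9, 25.5 and 12.6 CPM) and Vwf (38.2, 55.0 and 46.8 CPM). Pecam1, an adhesion molecule of endothelium, was at 47.8, 0.0562 and 50.5 CPM in the controls and 1.74, 2.40 and 3.03 CPM in APPswe. Of 7 endothelial markers, 2 were lower with all libraries (Kdr and Vwf) and 7 without control replicate 2, and their sum was 245.5, 83.5 and 262 CPM in the controls and 27.4 to 30.0 CPM in APPswe. Ibsp, a matrix protein of mineralizing osteoblasts, was at 84.8, 0.169 and 77.4 CPM in the controls and 52.5 to 55.2 CPM in APPswe. Of 12 osteoblast markers, 2 were higher (Sp7 and Runx2) and 1 lower (Spp1) with all libraries, and 4 were higher and 5 lower without control replicate 2. Their median log2 fold change was -0.12 in both fits. Their sum was 17580 to 18820 CPM in the controls and 11630 to 12260 CPM in APPswe. Nearly all of that sum was Col1a1, Col1a2 and Spp1, and the mean of Spp1 alone was 8171 CPM in control and 3569 CPM in APPswe. The part of these markers in the results for Clu, Mme and Apoe was not tested.

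**Figure D3:**
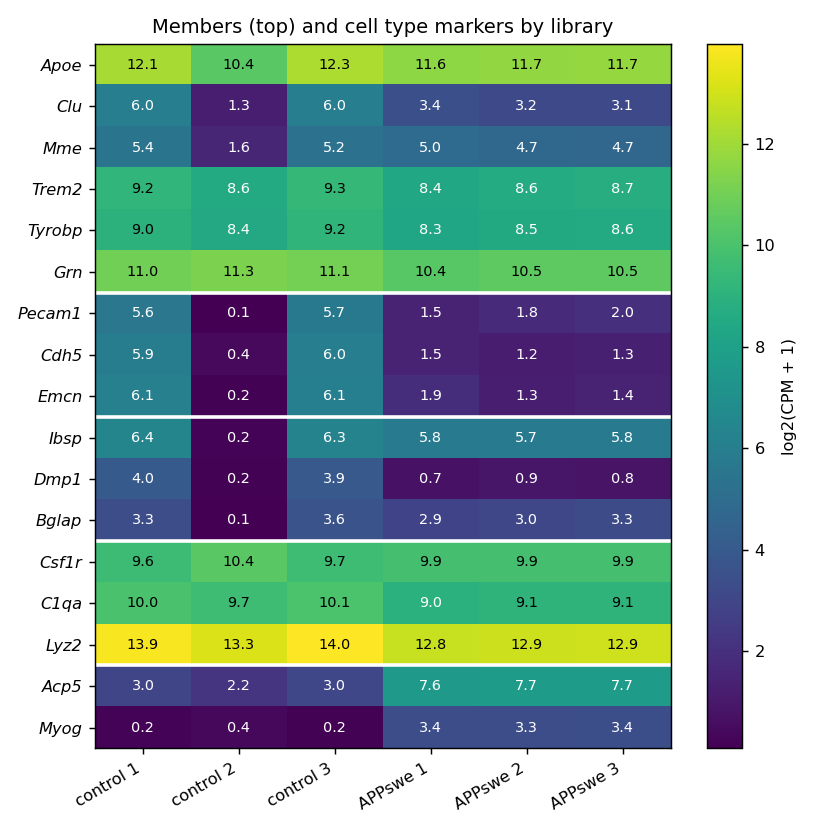
Levels of 6 of the 10 genes and of endothelial (Pecam1, Cdh5, Emcn), osteoblast (Ibsp, Dmp1, Bglap), macrophage (Csf1r, C1qa, Lyz2), osteoclast (Acp5) and muscle (Myog) markers in each library, as log2(CPM + 1), printed in each cell and coloured on 1 scale. Control replicate 2 is dark in the endothelial and osteoblast rows and in Clu and Mme, while its macrophage rows stay bright.

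Per transcript length, the genes spanned about 3 orders of magnitude. These levels are the authors' FPKM values, given as mean ± SD (n = 3). In control cells the order was Apoe at 3448 ± 1850, Tyrobp at 1462 ± 368, Grn at 1133 ± 110, Trem2 at 621 ± 160, Lrp1 at 138 ± 28.5, Bin1 at 91.1 ± 8.81, Clu at 26.9 ± 22.6, Ide at 18.4 ± 2.94, Mme at 4.73 ± 3.82 and Sorl1 at 3.65 ± 0.477. Apoe and Tyrobp, Tyrobp and Grn, Clu and Ide, and Mme and Sorl1 overlapped in that order. In APPswe cells the order ran Apoe (3335 ± 125), Tyrobp (1159 ± 102), Grn (772.5 ± 34.9), Trem2 (465 ± 52.6), Bin1 (106 ± 6.51), Lrp1 (97.0 ± 8.31), Ide (12.2 ± 0.503), Clu (5.74 ± 0.924), Mme (4.97 ± 0.620) and Sorl1 (2.10 ± 0.186). Bin1 and Lrp1, and Clu and Mme, overlapped there. Lrp1 and Bin1 exchanged places between the groups, as did Clu and Ide.

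**Figure D4:**
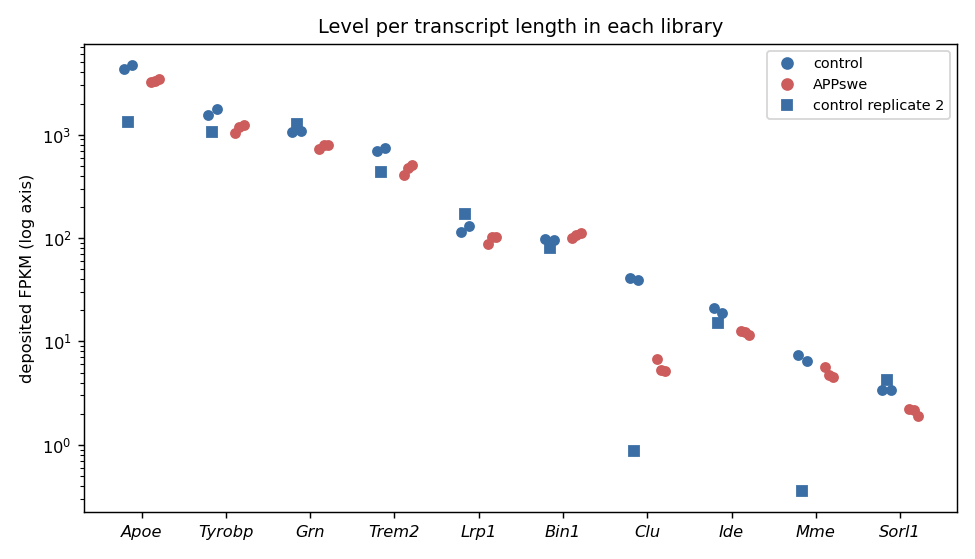
Deposited FPKM of the 10 genes in each library on a log axis, in the order of the control means, with controls in blue, APPswe in red and control replicate 2 as a square. Apoe, Tyrobp, Grn and Trem2 lie above 400 FPKM in all libraries, and Clu and Mme fall below 1 FPKM in control replicate 2 alone.

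The genes around the 10 were read from lists chosen by function, which share some genes with each other. Over all genes tested, 10.5% were higher and 12% lower, and 23.3% and 25% when control replicate 2 was left out. Among other proteases that degrade amyloid-beta, 14 of 16 were tested, and 4 were lower (28.6%) and 2 higher (14.3%). Their median log2 fold change was -0.17, and without control replicate 2 the counts were 6 and 4 (42.9% and 28.6%). Both cathepsins of the list fell. Ctsd was at 10990, 9922 and 12170 CPM in the controls and 4157, 4628 and 4706 CPM in APPswe (log2 fold change -1.29, SE 0.11, adjusted p = 0.000893, edgeR). Ctsb fell by 0.99 on the log2 scale (SE 0.09, adjusted p = 0.00139), and Ece1, an endothelin-converting metallopeptidase, had a log2 fold change of -0.82 (SE 0.08, adjusted p = 0.00122). Plau was the other gene that fell, and Mmp14 rose (log2 fold change 0.38, adjusted p = 0.0169). Mmp9, a secreted gelatinase of osteoclasts, rose most, from 2.66, 0.562 and 3.44 CPM to 124, 130 and 125 CPM (log2 fold change 5.83, SE 0.46, adjusted p = 0.000811). Beside it, 5 of the 7 osteoclast markers tested were higher (7 of 7 without control replicate 2), with a summed level of 158 to 290 CPM in control and 719 to 731 CPM in APPswe, Mmp9 itself among them, and Calcr at no more than 3 counts in every library. Their part in the result for Mmp9 was not tested.

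Among receptors and carriers of lipoproteins, 22 of 27 genes were tested, and 9 were lower (40.9%) and 3 higher (13.6%). Their median log2 fold change was -0.55. Without control replicate 2, 15 were lower (68.2%) and 6 higher (27.3%). The cholesterol exporter gene Abcg1 was at 93.9, 84.5 and 94.7 CPM in the controls and 26.0, 25.1 and 25.2 CPM in APPswe, with a log2 fold change of -1.84 (SE 0.08, adjusted p = 0.000287, edgeR). Its controls were close together, control replicate 2 included. The lipoprotein receptor genes Scarb1 and Lrp8 fell by 1.03 and 0.95 on the log2 scale (adjusted p = 0.00516 and 0.0205). Lrp4, which encodes the agrin receptor, and Lrp6, which encodes a WNT co-receptor, rose (log2 fold changes 0.59 and 0.66), as did Ager (1.30). Lrp5, the other WNT co-receptor of the list, was lower in all APPswe libraries but did not pass (log2 fold change -0.38, adjusted p = 0.073, edgeR). Abca1, which loads lipid onto APOE, fell by 0.55 on the log2 scale (adjusted p = 0.0168).

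Around TREM2 and TYROBP, 20 of 21 signalling genes were tested, and 6 were lower (30%) and 1 higher (5%). Their median log2 fold change was -0.25. Leaving out control replicate 2 gave 9 lower (45%) and 4 higher (20%). Plcg2, a phospholipase downstream of the receptor and itself an Alzheimer risk gene, was at 92.9, 158 and 107 CPM in the controls and 57.5, 57.5 and 53.9 CPM in APPswe (log2 fold change -1.08, SE 0.19, adjusted p = 0.0104, edgeR). The phosphatase gene Ptpn6 fell by 0.81 and the exchange factor gene Vav3 by 0.65. Syk, the kinase that TYROBP recruits, was at 138, 192 and 151 CPM in control and 154, 165 and 160 CPM in APPswe, with overlapping groups (adjusted p = 0.98). Hcst, which encodes the DAP10 adaptor, was the gene that rose, from 2.48, 1.35 and 3.67 CPM to 5.33, 6.13 and 5.90 CPM (adjusted p = 0.0462).

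Around SORL1, 12 of 14 genes of retromer and VPS10 sorting were tested, and 5 were lower (41.7%) and 0 higher. Their median log2 fold change was -0.36. The count of higher genes was also 0 at an unadjusted p under 0.05, in DESeq2 and in limma. With control replicate 2 left out, 7 were lower (58.3%) and 1 was higher (8.33%). The 5 were Vps35, Vps26a and Vps29, which encode the retromer core, and the sorting nexins Snx1 and Snx2. Vps35 was at 219, 269 and 191 CPM in the controls and 166, 155 and 150.5 CPM in APPswe (log2 fold change -0.53, SE 0.13, adjusted p = 0.0325, edgeR). Vps26a, Vps29 and Snx1 had log2 fold changes of -0.49, -0.47 and -0.49, so that the 4 were of like size. Sort1, the relative of Sorl1 that takes up progranulin, was at 50.3, 37.5 and 54.6 CPM in control and 34.7, 35.5 and 33.3 CPM in APPswe, and missed the threshold (adjusted p = 0.0622).

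Among 8 tested partners of progranulin, of 10 listed, 3 were lower (37.5%) and 0 higher in edgeR's test. Their median log2 fold change was -0.36, and 6 were lower (75%) without control replicate 2. At an unadjusted p under 0.05, 5 were lower and 0 higher, DESeq2 gave 5 and 0, and limma gave 2 and 0. Without a filter on low values, edgeR and limma each gave 1 higher gene. Gpnmb, a transmembrane glycoprotein of lysosomes in macrophages and osteoblasts, was at 5130, 4777 and 5681 CPM in the controls and 2198, 2456 and 2475 CPM in APPswe (log2 fold change -1.13, SE 0.10, adjusted p = 0.00104, edgeR). Lgmn, which encodes a lysosomal protease that cuts progranulin, fell by 0.34 on the log2 scale (adjusted p = 0.0466). The level of Gpnmb in control replicate 2 lay close to those of the other controls, as for Grn itself.

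Of 15 tested endocytic partners of BIN1, among 16 listed, 2 were higher and 1 lower, and the median log2 fold change was -0.03. These were shares of 13.3% and 6.67%, beside 10.5% and 12% of all genes. The counts became 5 and 4 without control replicate 2, or 33.3% and 26.7% beside 23.3% and 25% of all genes. Picalm, a clathrin adaptor and Alzheimer risk gene, rose from 280, 258.5 and 255 CPM to 492, 443 and 424 CPM (log2 fold change 0.78, SE 0.09, adjusted p = 0.00229, edgeR). The dynamin genes Dnm1 and Dnm2, which encode the GTPases that cut vesicles free, went in opposite directions, with log2 fold changes of 0.55 (adjusted p = 0.0478) and -0.34 (adjusted p = 0.0499), both close to the threshold.

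Among 31 other mouse orthologs of Alzheimer risk genes, 4 were higher and 5 lower, with a median log2 fold change of -0.18, shares of 12.9% and 16.1% beside the 10.5% and 12% of all genes. With control replicate 2 left out, 7 were higher (22.6%) and 11 lower (35.5%), beside 23.3% and 25% of all genes. Ms4a4a rose from 7.22, 7.42 and 7.85 CPM to 52.2, 52.8 and 50.2 CPM (log2 fold change 2.79, SE 0.09, adjusted p = 0.000159, edgeR), with both groups tight and far apart. The human MS4A cluster holds variants tied to the level of soluble TREM2. Cd33, a sialic acid receptor of myeloid cells, went from 54.1, 57.2 and 61.7 CPM to 30.2, 27.0 and 28.0 CPM (log2 fold change -1.02, adjusted p = 0.00103). Spi1, the gene of the myeloid transcription factor PU.1, fell by 0.35 (adjusted p = 0.0167).

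The signature of disease-associated microglia, the state that TREM2 sustains around plaques, had the largest share of lower genes among these 8 lists. Of 24 genes, 13 were lower (54.2%) and 1 was higher (4.17%), with a median log2 fold change of -0.63. Without control replicate 2, 20 were lower (83.3%). Timp2, B2m and Cst7 had log2 fold changes of -1.26, -1.23 and -1.24 (adjusted p = 0.00193, 0.000407 and 0.0135, edgeR), and Hif1a was the gene that rose (0.66, adjusted p = 0.00523). The fallen genes included Lyz2 of the macrophage list and Spp1 of the osteoblast list. Clec7a was at a log2 fold change of 0.12 and Itgax at 0.08, and neither passed (adjusted p = 0.798 and 0.916). The macrophage markers given above moved in the same direction, and their part in this count was not tested.

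**Figure D5:**
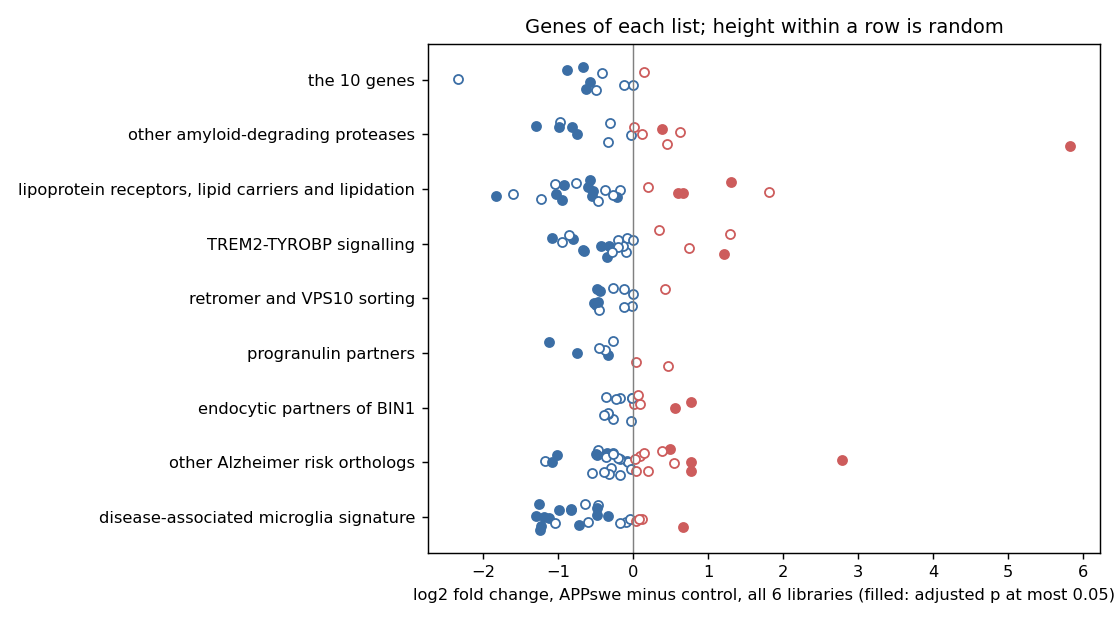
Log2 fold change, APPswe minus control, of the 10 genes and of the tested genes of 8 lists, 1 list per row, blue below 0 and red above, filled where the adjusted p was at most 0.05. The points of the disease-associated microglia list lie mostly left of 0, Mmp9 lies alone at 5.83 and Ms4a4a at 2.79.

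The genes closest to each member in pattern, by Pearson's r of log2 CPM over the 6 libraries among 12335 genes are given here as a description. Those of Sorl1 were Atp1b1 (r = 0.997) and Atp2a3 (r = 0.995), and those of Grn were Man2b1 and Zmiz1 (r = 0.999 each). Trem2 and Tyrobp had the same closest gene, Atp6v1f (r = 0.999 and 0.998), a subunit of the lysosomal proton pump. The closest genes of Apoe were Gstt1 and Prg4 and those of Clu were Pamr1 and Dap. Mme was closest to Rspo2 and to the Y-linked Uty, which was at 0.0562 CPM in control replicate 2 and 14.0 to 30.2 CPM in the other libraries. The nearest genes of Ide were Pilrb1 and Ltc4s, of Lrp1 Sympk and Hcls1, and of Bin1 Nudt16 and Vamp2. With 6 libraries in 2 groups and 1 library apart, high values of r arise among many genes, and no p is given.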

How the data were processed

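RNA from sorted tdTomato+ cells was sequenced on the DNBseq platform, in 3 control and 3 APPswe libraries grouped by their genotype labels. The authors deposited raw read counts for each gene, and the FPKM values were normalized by the authors before they were deposited. Blank FPKM cells, in 397 genes for hyphen-named and 716 for low-line-named libraries, were read as 0. The deposited log2 fold changes and p-values are the authors' own comparison and were not used. The submitters' processing notes name GRCm38, and the aligner and counting tool are not given in the sources used here, nor is strandedness. Coordinates and promoters are from RefSeq (GRCm38.p6).

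The main fit used edgeR 4.0.16 under R 4.3.3, with TMM, filterByExpr and the quasi-likelihood test of genotype without a covariate, with Benjamini-Hochberg adjustment over all genes tested. A standard error is the log2 fold change over the square root of F. Alternatives used DESeq2 1.42.0, limma 3.58.1 on log2(FPKM + 1) or log2(FPKM + 0.1), other normalizations and filters, covariates, and each library left out in turn. Each of 15 library pairs differed beyond counting noise, which does not show separate animals or cultures. The closest, APPswe replicates 2 and 3, had a chi-square of 1.57 per degree of freedom, and their sum as 1 library was an alternative. On counts simulated from these means with 200 genes shifted by 1 on the log2 scale, edgeR passed 151 of them with the right sign and 10 unchanged genes, of 13365 tested. The simulation drew the libraries of a group alike. It had no library apart like control replicate 2 and no close pair like APPswe replicates 2 and 3. These counts therefore do not give the error rates for the data themselves.

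The 10 genes and the lists were chosen with earlier results of these data known. The text names the 10 genes, up to 4 genes per list with the largest absolute log2 fold change among those passing whose mean log2 CPM reached 1, the 2 genes most like each member, and markers that bear on a member. Plau, Mmp14, Lrp4, Lrp5, Lrp6, Ager, Abca1, Syk, Snx2, Sort1, Hif1a, Spi1, Clec7a and Itgax are outside this rule and were chosen once their values were known. A few genes that the rule names are not reported here. Intervals and floors cover counting error only.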

Additional observations from a re-analysis of the deposited data

How the results depend on the processing

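Sorl1 and Grn were lower and passed in 19 of 19 alternatives, Ide in 15, Lrp1 in 8, and Apoe, Clu, Mme, Trem2 and Tyrobp in the 3 without control replicate 2. The count of lower genes among the 10, 4 in the reported fit, was 2 when APPswe replicates 2 and 3 were summed, 0 when an absolute log2 fold change of 1 was also required, and 9 without control replicate 2 both with the name style as a covariate and with the sum (these last settings were chosen after the data were seen). Leaving out single libraries gave 2 to 9, with 2 without each APPswe replicate in turn and 9 without control replicate 2. Over all genes, 1414 were higher and 1622 lower. The sum gave 521 and 561, the fold limit 504 and 486, limma without a filter 977 lower, and the later settings 4457 and 4501 with the name style and 2687 and 3108 with the sum. Single libraries left out gave 480 to 3199 higher, least without APPswe replicate 3 and most without control replicate 2, and 536 to 3438 lower, least without APPswe replicate 2. In the 8 lists together, 12 genes were higher and 42 lower. The sum gave 5 and 15, the fold limit 4 and 10, the later settings 33 and 76 and then 25 and 64, and single libraries left out 5 to 27 and 15 to 70. The log2 fold change of Apoe turned positive in limma on FPKM with either pseudocount or without a filter (0.15 in each) and lay between -0.51 and 0.16 with single libraries left out. That of Mme, 0.00 in the reported fit, was 0.074 without TMM, 0.006 without a filter, 0.00 with at least 10 counts in every library, 0.046 with the sum, 0.44 in limma with a pseudocount of 1 with or without a filter, 0.84 with 0.1, and -0.55 to 0.47 with single libraries left out. The causes were not tested.

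The replicate numbers were not used as pairs in the main fit. Deviations of same-numbered libraries from their group means correlated at 0.07, -0.04 and 0.16, and not every library correlated best with its own number. This cannot decide whether the samples were paired, since control replicate 2 lay far from the other controls and entered their group mean. With the replicate number as a block, 933 genes were higher, 4 of the 10 genes were lower, and Apoe and Mme stood at log2 fold changes of 0.059 and 0.54. The lowest count of any of the 10 genes in a library was 25, for Clu in control replicate 2, and no setting varied the depth.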

Other observations

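Skeletal muscle genes were low in the controls, some near the floor and others (Des and Mylpf) above it in every control, and rose in APPswe cells. Of 9 muscle markers tested, 9 were higher with control replicate 2 and 9 without it, with median log2 fold changes of 5.38 and 6.25, and their summed level was 3.95 to 12.6 CPM in the controls and 181 to 188 CPM in APPswe. Myog, the gene of the muscle regulator myogenin, was at 0.173, 0.281 and 0.113 CPM in the controls and 9.25, 9.19 and 9.78 CPM in APPswe (log2 fold change 5.58, adjusted p = 0.000296, edgeR). Of 8 fibroblast and stromal markers, 3 were higher (Col3a1, Pdgfra and Fbn1), with sums of 2542 to 4611 CPM in the controls and 7517 to 7681 CPM in APPswe. Col3a1 was the largest part of these sums, at 2108, 1134 and 2157 CPM in the controls and 4744, 4888 and 4840 CPM in APPswe. Without control replicate 2, 3 of the 8 markers were higher and 3 lower (Dcn, Lum and Cxcl12, with log2 fold changes of -1.08, -0.83 and -0.31). Their median was then -0.07.

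Of the remaining marker lists, 5 of 7 microglia markers were tested, with 1 higher (Gpr34) and 1 lower, or 2 and 2 without control replicate 2, and Siglech at 0 everywhere. Of the dendritic cell markers, 2 of 7 were tested and Zbtb46 was higher, and without control replicate 2 Itgax was lower as well. Of the neutrophil markers 3 of 8 and of the lymphocyte markers 1 of 6 were tested. Their smallest adjusted p was 0.208 (S100a8, edgeR), and their summed levels were at most 22.4 and 2.08 CPM in any library. Leaving out control replicate 2 gave 1 higher (Mmp8) and 1 lower (Camp) neutrophil marker and no call for the lymphocyte one (Cd4, adjusted p = 0.325). Of the neuron and astrocyte markers 3 of 7 were tested, and Aldh1l1 was lower, with 2 of 4 lower (Aldh1l1 and Gfap) without control replicate 2.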
